A study of Mus musculus with 9 samples.

Results

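Alveolar macrophages (AMs), the macrophages that live in the air spaces of the lung, were compared between tumor-bearing and control mice in 6 of the 9 samples of the study, with 3 samples in each group. All mice were wild-type C57BL/6 females at postnatal week 10. Lungs of the Tumor-AM group had received Lewis lung carcinoma (LLC) cells, a lung cancer line from the same mouse strain that here carried the red fluorescent protein tdTomato, which were injected with Matrigel through the chest wall into the left lung. Mice of the Ctrl-AM group had received saline vehicle. AMs were sorted from digested lung as CD45+ autofluorescent Siglec-F+ cells. Samples were assigned by their labels alone, so no measured value chose them. The remaining 3 samples, Siglec-F- macrophages of tumor-bearing lungs (Tumor-macrophage), entered no test, and their levels are given only beside those of AMs.

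The model rests on a single transplanted cell line, the lungs were not perfused with fluid before digestion, and the study bred tumor-bearing and control mice separately, so that tumor and breeding cannot be told apart. Each population was sorted from 3 mice. In these bulk samples, a fall of a transcript through fewer cells of a type and a fall through less RNA per cell cannot be told apart.

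AMs clear surfactant lipid, dust and microbes from the alveolus. Granulocyte-macrophage colony-stimulating factor (GM-CSF) from the lung epithelium and transforming growth factor beta set their identity through the nuclear receptor PPAR-gamma, which controls genes for the uptake, storage and oxidation of lipid. In a healthy lung AMs renew themselves in place, whereas macrophages recruited to an injured or tumor-bearing lung come largely from blood monocytes and express complement C1q and apolipoprotein E at high levels.

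Expression was given as FPKM, the number of sequenced fragments per kilobase of transcript and per 1000000 mapped fragments, which allows levels of different genes to be compared. Estimated depth was 10600000 to 12800000 reads per sample, and a gene at 1 FPKM with a 1 kb transcript therefore rests on about 10.6 to 12.8 reads. Of 24346 genes in the files, 10071 reached 1 FPKM in at least 3 of the 6 samples and were tested with limma on log2(FPKM + 1), which understates the change of genes near 1 FPKM. With a Benjamini-Hochberg adjusted p of at most 0.05 as the threshold, 779 genes were higher in Tumor-AM (7.74% of the genes tested) and 413 were lower (4.10%). At an unadjusted p under 0.05 there were 2777 genes. The median change was 0.60 for the higher genes, −0.49 for the lower genes and 0.01 for all genes, on the log2 scale. Changes of 2-fold or more were found for 174 higher and 30 lower genes. The lower genes were the more abundant, with a median of 30.4 FPKM in Ctrl-AM, against 16.2 FPKM for the higher genes and 10.3 FPKM for all genes tested.

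In all 1192 genes past the threshold the 3 Tumor-AM samples lay on the same side of the 3 Ctrl-AM samples without overlap. A lack of overlap given for single genes below therefore describes their values and adds no support beyond the threshold. Leaving out 1 sample and refitting lowered the number of genes past the threshold to 377 higher and 155 lower without Ctrl-AM 1, 486 and 186 without Ctrl-AM 2, 396 and 144 without Ctrl-AM 3, 636 and 335 without Tumor-AM 1, 722 and 405 without Tumor-AM 2, and 494 and 249 without Tumor-AM 3. Genes named below as higher or lower passed the threshold in all 6 of these refits unless a value without a sample is given. How many of them were higher changed with the scaling. Of the genes past the threshold 65.4% were higher, against 54.8% after quantile normalization (642 higher and 530 lower) and 31.2% after rescaling to TPM (transcripts per 1000000 transcripts, which gives every sample the same sum, 471 higher and 1040 lower). The rescaling moved the median of all genes to −0.12 on the log2 scale. Reads of genes with near copies could be counted under another gene, and the share of 75-base transcript windows found in other genes is given beside several genes below. It was 26.2% to 64.9% for Ctsd, Ctsl, Cdk4, Timp3, Pgam1, Bnip3, Hsp90aa1, Actg1, S100a11, Serf1, Rpl37a and Rpph1.

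**Figure D1:**
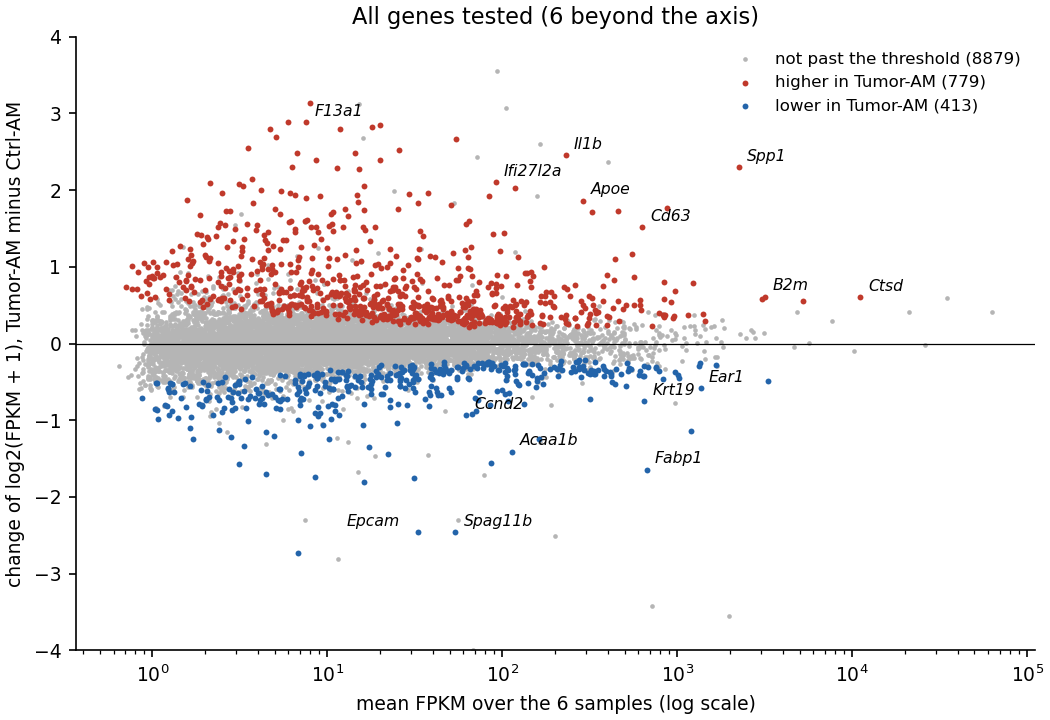
Each point is 1 of the 10071 genes tested, with its mean FPKM over the 6 samples on the x axis (log scale) and the change of log2(FPKM + 1) in Tumor-AM against Ctrl-AM on the y axis. Red points are the 779 higher genes, blue points the 413 lower genes and grey points the rest, and 6 genes lie beyond the axis limit of 4.

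The sorted cells carried AM markers at high levels in both groups. The summed level of 13 AM marker genes was 33247 to 38488 FPKM in Ctrl-AM and 28622 to 44942 FPKM in Tumor-AM. Most of this sum was Chil3, with means of 25739 FPKM in Ctrl-AM and 26233 FPKM in Tumor-AM. Of the 13, 4 were lower in Tumor-AM and are described below (Fabp1, Ear1, Ear2 and Pparg). Markers of other cell types moved as well. All 8 tested markers of recruited and tumor macrophages (C1qa, C1qb, C1qc, Ccl8, Aif1, Ms4a7 and Apoe among them) were higher in Tumor-AM, and the sum of their list was 121.8 to 220.0 FPKM in Ctrl-AM and 408.8 to 760.4 FPKM in Tumor-AM, while the means of Cx3cr1, Folr2 and Lyve1 of the same list were under 1 FPKM in both groups and 68.8, 62.4 and 2.5 FPKM in Tumor-macrophage. Most of the sum was Apoe, with means of 125.9 FPKM in Ctrl-AM and 451.6 FPKM in Tumor-AM. The count of 8 higher markers was 5 without Ctrl-AM 1 and 5 without Ctrl-AM 2. Of 9 tested monocyte markers 4 were higher (Ly6c2, Ccr2, F13a1 and Fn1), with a sum of 72.6 to 92.5 FPKM against 156.1 to 190.4 FPKM, and 2 without Ctrl-AM 1 or without Ctrl-AM 2. The genes behind these lower counts were Aif1 (adjusted p 0.0586 without Ctrl-AM 1 and 0.0523 without Ctrl-AM 2), Ms4a7 (0.0666 to 0.149 without Ctrl-AM 1, 2 or 3 or Tumor-AM 1 or 3), Ccr2 (0.0767 without Ctrl-AM 1 and 0.0593 without Ctrl-AM 2) and Ly6c2 (0.05 to 0.0787 without Ctrl-AM 1, 2 or 3 or Tumor-AM 2 or 3), besides Ccl8 below.

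Markers of neutrophils ranged in sum from 147.2 to 175.4 FPKM in Ctrl-AM and from 150.9 to 214.0 FPKM in Tumor-AM. Of the 6 tested, none was higher and 2 were lower, S100a9 (−1.81 ± 0.32, adjusted p = 0.00997) and Retnlg (−1.09 ± 0.26, adjusted p 0.05 to 0.111 without Ctrl-AM 1, 2 or 3 or Tumor-AM 1 or 2), and 1 was higher without Tumor-AM 1. At an unadjusted p under 0.05 in limma 1 was higher, and Elane was at 0 in all 6 samples. Fibroblast and smooth muscle markers ranged from 14.5 to 21.6 FPKM and from 18.6 to 102.8 FPKM, with the highest sum in Tumor-AM 3. Of the 7 tested 2 were higher, the matrix genes Col3a1 and Lum, with 1 without Ctrl-AM 1, 2 or 3 or Tumor-AM 1 and 4 without Tumor-AM 2. Lum, lumican, had 0.48, 0.229 and 0.344 FPKM in Ctrl-AM and 6.62, 4.95 and 35.1 FPKM in Tumor-AM (3.13 ± 0.58, adjusted p = 0.0117). Epithelial markers, led by Sftpc and Scgb1a1, ranged from 65.7 to 216.9 FPKM and from 54.1 to 112.0 FPKM. Of the 7 tested 1, Hopx, was higher (from 5.88 ± 1.21 to 18.6 ± 2.32 FPKM, 1.52 ± 0.15, adjusted p = 0.00119). B cell markers (44.3 to 50.3 FPKM against 38 to 51.1 FPKM) had 2 of 5 lower, Cd79a (−1.21 ± 0.23, adjusted p 0.0518 without Ctrl-AM 3) and Ms4a1 (−0.58 ± 0.14, adjusted p 0.0585 to 0.114 without Ctrl-AM 1, 2 or 3 or Tumor-AM 2 or 3). Of 5 tested dendritic cell markers (80.5 to 87.9 FPKM against 95.4 to 103.9 FPKM) Cd209a (−1.33 ± 0.23, adjusted p = 0.00853) and Ccl22 (−0.65 ± 0.13, adjusted p 0.0511 to 0.0617 without Ctrl-AM 1 or 3 or Tumor-AM 3) were lower and Bst2, which interferon also induces, was higher (0.45 ± 0.10, adjusted p 0.1 without Ctrl-AM 1 and 0.083 without Ctrl-AM 3). T and NK cell markers (11 to 15.2 FPKM against 11 to 28.5 FPKM) had none past the threshold of 6 tested and 1 with an unadjusted p under 0.05. Of 11 eosinophil, basophil and mast cell markers 10 had means under 1 FPKM in both groups, and Epx, Prg2, Fcer1a and Gata1 were at 0 in all 6 samples. The other, Siglece, had 31.3 FPKM in Ctrl-AM and 26.7 FPKM in Tumor-AM and did not pass the threshold. Endothelial markers (16.1 to 18.8 FPKM against 7.03 to 15.3 FPKM) had none of 5 past it. Erythroid and platelet markers (4.85 to 12.3 FPKM against 4.87 to 14.6 FPKM) had none of 2, and 1 was higher without Tumor-AM 2. The part of these cells in the results below was not tested.

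The lowered genes included carriers and enzymes of fatty acid metabolism that AMs express at high levels. Fabp1, a fatty acid-binding protein best known from liver, had 1019, 934 and 1084 FPKM in Ctrl-AM and 347, 371 and 260.4 FPKM in Tumor-AM, 3.1 times more in Ctrl-AM on average (log2 change −1.65 ± 0.13, adjusted p = 0.00055). The lowest Ctrl-AM sample lay far above the highest Tumor-AM sample. Acaa1b, a thiolase of peroxisomal fatty acid oxidation, had 169, 164 and 161 FPKM in Ctrl-AM and 58.9, 72.7 and 53.9 FPKM in Tumor-AM (−1.41 ± 0.10, adjusted p = 0.000433). Acot1, a thioesterase that frees fatty acids from coenzyme A, had 29.6, 24.4 and 21.4 FPKM in Ctrl-AM and 8.45, 12.5 and 7.35 FPKM in Tumor-AM (−1.34 ± 0.18, adjusted p = 0.00361). Cidec, a lipid droplet protein and target of PPAR-gamma, had 403, 368 and 404 FPKM in Ctrl-AM and 227, 288 and 204 FPKM in Tumor-AM (−0.72 ± 0.12, adjusted p = 0.00793). In all 4 genes the Tumor-AM samples formed a separate, lower group, with Tumor-AM 2 the highest of them. Transcripts of these 4 genes were under 1 FPKM in Tumor-macrophage (0.827, 0.0615, 0.57 and 0.197 FPKM). Acaa1b shares 37.8% and Acot1 15.5% of its 75-base windows with other genes, so part of their reads could be counted under another gene.

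Pparg, the receptor that drives much of this program, fell from 202 ± 15.9 to 139.7 ± 4.16 FPKM (−0.53 ± 0.07, adjusted p = 0.00362), which is a fall of 30.9%. Abcg1, an exporter of cholesterol, fell from 379.6 ± 11.5 to 289 ± 8.45 FPKM (−0.39 ± 0.06, adjusted p = 0.00534). Over the list of fatty acid oxidation and peroxisome genes, 6 of 40 were lower (15%, against 4.10% of all genes tested) and none was higher, although 4 had an unadjusted p under 0.05 as higher and 9 as lower in limma, and the median change was −0.05 on the log2 scale. The count of lower genes was 2 without Ctrl-AM 1, 3 without Ctrl-AM 3 and 10 after rescaling to TPM. Its lower members were mainly peroxisomal. Besides Acaa1b they were Hsd17b4, a multifunctional enzyme of peroxisomal oxidation (from 134 ± 3.97 to 102 ± 7.13 FPKM, −0.40 ± 0.07), and, less steadily, Ehhadh, Abcd2, Eci2 and Acadm. Ehhadh, the second multifunctional enzyme of the peroxisome, changed by −1.08 ± 0.26 and its adjusted p was 0.0728 to 0.11 without Ctrl-AM 1, 2 or 3 or Tumor-AM 1. Abcd2, a transporter that brings long fatty acids into peroxisomes, changed by −0.58 ± 0.11, with an adjusted p of 0.0522 to 0.0543 without Ctrl-AM 1, 2 or 3. Eci2 (−0.32 ± 0.06) had 0.053 without Ctrl-AM 1 and 0.0558 without Ctrl-AM 3, and the mitochondrial dehydrogenase Acadm (−0.35 ± 0.06) had 0.053 without Ctrl-AM 1. Cpt1a, which lets fatty acids into mitochondria, was level, with 73.8 FPKM in Ctrl-AM and 72.3 FPKM in Tumor-AM (−0.03 ± 0.08, adjusted p = 0.837).

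Other lowered enzymes act on glycerol, pyruvate and sterols. Gpd1, which makes the glycerol backbone of triglyceride from a glycolytic intermediate, fell from 14.7 ± 3.1 to 5.73 ± 2.03 FPKM (−1.24 ± 0.22, adjusted p = 0.01). Mpc2, a subunit of the carrier that brings pyruvate into mitochondria, fell from 191 ± 5.03 to 141 ± 8.41 FPKM (−0.43 ± 0.07, adjusted p = 0.00547), while the level of its partner Mpc1 was 298 FPKM in Ctrl-AM and 372 FPKM in Tumor-AM (0.30 ± 0.13, adjusted p = 0.176). Ch25h, which makes the oxysterol 25-hydroxycholesterol, had 41.3, 27.9 and 30.1 FPKM in Ctrl-AM and 9.52, 13.8 and 11.3 FPKM in Tumor-AM (−1.44 ± 0.17, adjusted p = 0.00208), with no Tumor-AM sample above the lowest Ctrl-AM sample. Plin2, the coat protein of lipid droplets and with 1837 FPKM in Ctrl-AM the most abundant of the lipid droplet genes named here, changed by −0.29 ± 0.07, but its adjusted p was 0.0562 to 0.147 without Ctrl-AM 1, 2 or 3 or Tumor-AM 1 or 3.

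Genes for the synthesis and storage of lipid did not follow the same direction. Of 36 tested genes of fatty acid synthesis and lipid droplets, 9 were higher (25%, against 7.74% of all genes) and 3 were lower, with a median of 0.17, and the count of lower genes was 1 without Ctrl-AM 1, 1 without Ctrl-AM 2 and 6 without Tumor-AM 2. Dgat1 and Dgat2, which carry out the last step of triglyceride synthesis, rose from 69.2 ± 10 to 114 ± 10.9 FPKM (0.72 ± 0.11, adjusted p = 0.00603) and from 73.6 ± 10.8 to 124 ± 10.5 FPKM (0.75 ± 0.11, adjusted p = 0.00465). Fads1, a desaturase of polyunsaturated fatty acids, rose from 2.41 ± 0.794 to 6.24 ± 0.526 FPKM (1.11 ± 0.18, adjusted p = 0.00681). Hilpda, a droplet protein that restrains lipolysis, rose from 471 ± 31.4 to 667 ± 58.5 FPKM (0.50 ± 0.08, adjusted p = 0.00848). Among the fatty acid-binding proteins Fabp5 rose from 372 ± 7.27 to 550.1 ± 34.8 FPKM (0.56 ± 0.07, adjusted p = 0.00206), in the direction opposite to Fabp1, and Fabp4 had 194 FPKM in Ctrl-AM and 142 FPKM in Tumor-AM and did not pass the threshold (−0.45 ± 0.19, adjusted p = 0.171), except without Tumor-AM 2 (−0.64 ± 0.17, adjusted p = 0.0494).

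The wider AM program, genes tied to surfactant handling and GM-CSF, moved in both directions. Of 28 tested members 8 were lower (28.6%) and 6 were higher (21.4%), with a median of −0.04, and without Ctrl-AM 1 or without Ctrl-AM 3 the counts were 5 lower and 3 higher. The lower members were Fabp1, Krt19, Cidec, Ear1, Ear2, Abcg1, Serpinb1a and Bhlhe41. The higher members were Ctsk, Gpnmb, Fabp5, Csf2ra, Lpcat1 and Olr1. Ctsk, a collagen-cutting cathepsin, rose from 398 ± 22.1 to 738 ± 158 FPKM (0.87 ± 0.14, adjusted p = 0.00826), and Gpnmb, a lysosomal membrane glycoprotein, rose from 104 ± 15.1 to 195 ± 40.1 FPKM (0.88 ± 0.16, adjusted p = 0.0112). Csf2ra, the ligand-binding chain of the GM-CSF receptor, changed by 0.38 ± 0.07, with an adjusted p of 0.0572 without Ctrl-AM 1 and 0.0582 without Ctrl-AM 3, Lpcat1, an enzyme of surfactant lipid remodelling, by 1.01 ± 0.22 (adjusted p 0.0589 to 0.075 without Ctrl-AM 1 or 3 or Tumor-AM 1 or 3) and the scavenger receptor Olr1 by 0.26 ± 0.06 (adjusted p 0.0605 to 0.0846 without Ctrl-AM 1, 2 or 3 or Tumor-AM 3). Not past the threshold were Chil3, Car4, Atp6v0d2, Lpl, Csf2rb and Plet1, among others.

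AMs of the mouse express several genes otherwise typical of epithelium, and part of this group fell. Of 15 tested epithelial-type genes, 5 were lower (33.3%) and 1 was higher, with a median of −0.42, with 3 lower without Ctrl-AM 3, 2 higher without Tumor-AM 2 and 8 lower after rescaling to TPM. Krt19, a keratin of the intermediate filaments, had 861, 794 and 769.5 FPKM in Ctrl-AM and 438, 540.0 and 466 FPKM in Tumor-AM (−0.75 ± 0.09, adjusted p = 0.00212). Epcam, an epithelial adhesion molecule, had 43.8, 53.9 and 67.8 FPKM in Ctrl-AM and 18.8, 4.52 and 8.27 FPKM in Tumor-AM (−2.46 ± 0.40, adjusted p = 0.00719). Cldn1, a claudin of tight junctions, had 15, 12.8 and 12.9 FPKM in Ctrl-AM and 5.39, 3.02 and 2.19 FPKM in Tumor-AM (−1.74 ± 0.23, adjusted p = 0.00309). In these 3 genes every Tumor-AM sample was below every Ctrl-AM sample, and Tumor-AM 1 stood highest in Epcam and Cldn1 but lowest in Krt19. Perp, a desmosomal protein, changed by −0.53 ± 0.10 with an adjusted p of 0.0502 to 0.0642 without Ctrl-AM 1 or 3 or Tumor-AM 3, and Ocln, a tight-junction protein, by −0.49 ± 0.10 with 0.0629 without Ctrl-AM 2 and 0.0723 without Ctrl-AM 3. Cdh1, the epithelial cadherin that AMs carry, had 21.4 FPKM in Ctrl-AM and 16.8 FPKM in Tumor-AM and did not pass the threshold (−0.42 ± 0.26, adjusted p = 0.343), except without Tumor-AM 2, its highest Tumor-AM sample (−0.76 ± 0.11, adjusted p = 0.00534). Epithelial cell markers sat beside these values as follows. Sftpc, made by alveolar type 2 cells, had 28.6, 40.6 and 70.1 FPKM in Ctrl-AM and 23.8, 22.2 and 55.1 FPKM in Tumor-AM, and Scgb1a1, made by club cells, had 168, 5.22 and 2.2 FPKM in Ctrl-AM and 53.2, 3.99 and 4.49 FPKM in Tumor-AM. The sum of all 13 epithelial markers was 65.7 to 216.9 FPKM in Ctrl-AM and 54.1 to 112.0 FPKM in Tumor-AM. In every one of the 6 samples Krt19 was above this sum, and Epcam and Cldn1 were below it. The part of epithelial cells in these values was not tested.

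Secreted defence proteins were also among the lowered genes. Spag11b, a peptide related to the beta-defensins, had 99.8, 77.9 and 96 FPKM in Ctrl-AM and 18.1, 21.1 and 9.92 FPKM in Tumor-AM, 5.58 times more in Ctrl-AM (−2.46 ± 0.23, adjusted p = 0.00119). Ear1, an eosinophil-associated ribonuclease that AMs secrete, had 1532, 1745 and 1629.7 FPKM in Ctrl-AM and 1168, 1021 and 1081 FPKM in Tumor-AM (−0.58 ± 0.08, adjusted p = 0.00345), and its adjusted p was 0.251 when all 9 samples shared an estimate of the spread. Ear2, its neighbour in the family and among the 20 most abundant transcripts, had 3693, 4009 and 3846 FPKM in Ctrl-AM and 3142, 2540.1 and 2591 FPKM in Tumor-AM (−0.49 ± 0.10, adjusted p = 0.0157), with an adjusted p of 0.0536 to 0.0696 without Ctrl-AM 1, 2 or 3 or Tumor-AM 3 and 0.416 with the shared spread. All 3 genes were lower in each Tumor-AM sample than in any Ctrl-AM sample. Ear1 and Ear2 share 39.3% and 23.4% of their 75-base windows with other genes, so that reads may be exchanged within the family. Retnla, a secreted product of macrophages exposed to interleukin 4, changed by −2.73 ± 0.65 around a low level (9.39, 3.48 and 25.4 FPKM in Ctrl-AM and 0.222, 2.45 and 0 FPKM in Tumor-AM), and its adjusted p was 0.0786 to 0.0953 without Ctrl-AM 1 or 3 or Tumor-AM 1 or 3.

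Over the list of secreted defence proteins 5 of 18 were lower and 2 were higher, with a median of 0.10, the lower count was 2 without Ctrl-AM 1, 3 without Ctrl-AM 2, 2 without Ctrl-AM 3, 3 without Tumor-AM 1 and 3 without Tumor-AM 3, and the higher count was 1 without Ctrl-AM 1, 1 without Ctrl-AM 2, 1 without Ctrl-AM 3, 4 without Tumor-AM 2 and 1 without Tumor-AM 3. The higher members were whey acidic proteins. Wfdc17 rose from 206 ± 23.1 to 707 ± 216 FPKM (1.73 ± 0.20, adjusted p = 0.00212), and Wfdc21 had 697, 794 and 725 FPKM in Ctrl-AM and 907, 1371 and 1352 FPKM in Tumor-AM (0.69 ± 0.15, adjusted p = 0.0233), with an adjusted p of 0.0535 to 0.0921 without Ctrl-AM 1, 2 or 3 or Tumor-AM 3. Another gene of this kind, Wfdc10, fell from 87.8 ± 9.44 to 46.6 ± 12.2 FPKM (−0.92 ± 0.16, adjusted p = 0.0101), and none of its transcript was listed in Tumor-macrophage. Gal, which encodes the neuropeptide galanin, had 244, 212 and 222 FPKM in Ctrl-AM and 96.5, 121 and 73 FPKM in Tumor-AM (−1.24 ± 0.16, adjusted p = 0.0028), with an adjusted p of 0.0588 under the shared spread. S100a9, a calcium-binding protein abundant in neutrophils, fell from 25.4 ± 6.08 to 6.97 ± 3.4 FPKM (−1.81 ± 0.32, adjusted p = 0.00997), whereas its partner S100a8 had 77.7 FPKM in Ctrl-AM and 121 FPKM in Tumor-AM (0.60 ± 0.17, adjusted p = 0.0581) and was higher without Tumor-AM 1 (0.83 ± 0.08, adjusted p = 0.00205).

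**Figure D2:**
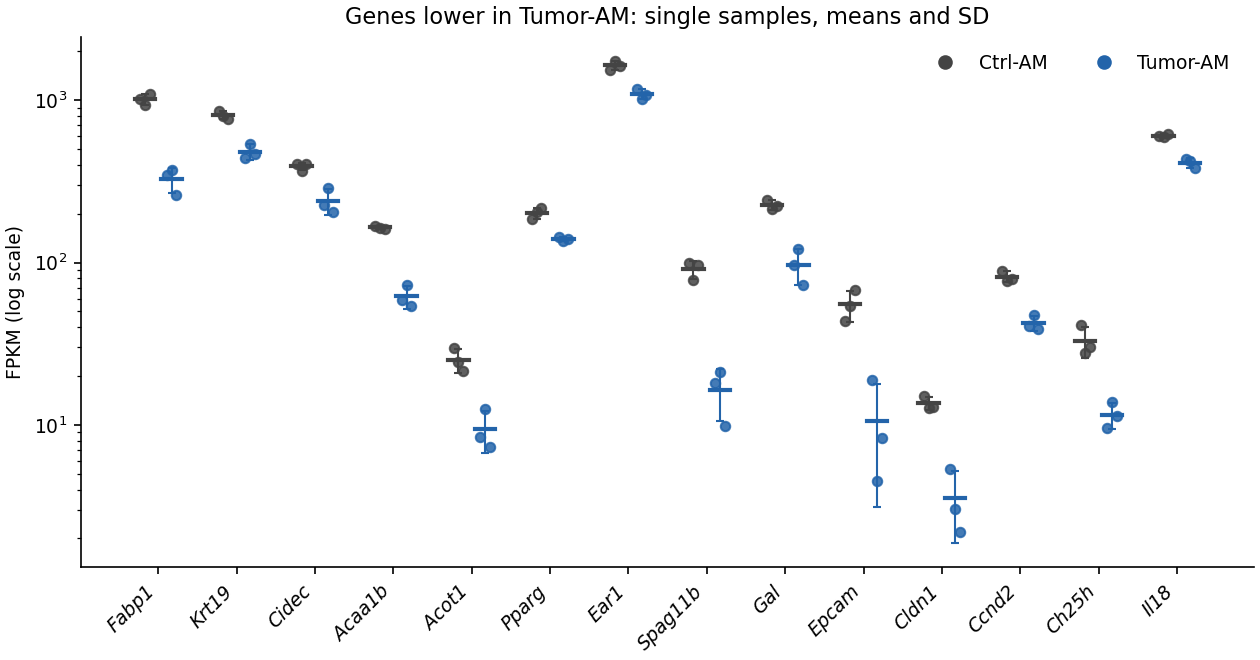
FPKM (y axis, log scale) of 14 genes lower in Tumor-AM, with Ctrl-AM in grey and Tumor-AM in blue. Points are single samples, short lines the means and bars the SD of 3 samples. In each of the 14 genes the 3 Tumor-AM points lie below the 3 Ctrl-AM points, as holds for all lower genes past the threshold.

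Il18, a cytokine of the interleukin 1 family that AMs hold as a precursor, had 598, 592 and 622 FPKM in Ctrl-AM and 434, 421 and 381 FPKM in Tumor-AM (−0.55 ± 0.07, adjusted p = 0.00242), and all 3 Tumor-AM samples were lower. Its natural inhibitor Il18bp moved the other way, from 3.22 ± 0.889 to 12.1 ± 3.9 FPKM (1.62 ± 0.22, adjusted p = 0.00377). Among chemokines the lower genes were Ccl22 (−0.65 ± 0.13, adjusted p 0.0511 to 0.0617 without Ctrl-AM 1 or 3 or Tumor-AM 3) and Cx3cl1 (−0.36 ± 0.10, adjusted p 0.0947 to 0.161 without Ctrl-AM 1, 2 or 3 or Tumor-AM 2 or 3), ligands of CCR4 and CX3CR1. P2ry14, a receptor for UDP-glucose, fell from 62.3 ± 5.01 to 40.1 ± 4.63 FPKM (−0.63 ± 0.10, adjusted p = 0.00679), and the related P2ry13 changed by −0.67 ± 0.18, with an adjusted p of 0.0995 to 0.141 without Ctrl-AM 1, 2 or 3 or Tumor-AM 1 or 3. Fpr1, a receptor for formylated bacterial peptides, changed by −0.36 ± 0.09, with an adjusted p of 0.0557 to 0.123 without Ctrl-AM 1, 2 or 3 or Tumor-AM 1 or 3.

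Regulators of the G1 phase of the cell cycle and of AM identity were among the lowered genes. Ccnd2, the D-type cyclin, had 89.3, 77 and 79.6 FPKM in Ctrl-AM and 40.9, 47.8 and 39.2 FPKM in Tumor-AM (−0.93 ± 0.09, adjusted p = 0.00131). Cdk6, a kinase that D-type cyclins activate, had 23.3, 19 and 19.7 FPKM in Ctrl-AM and 10, 11.1 and 13.7 FPKM in Tumor-AM (−0.78 ± 0.13, adjusted p = 0.00756). In both genes no Tumor-AM sample reached the lowest Ctrl-AM sample. Other cell cycle genes did not follow. Of 43 tested 3 were lower (6.98%, against 4.10% of all genes tested) and 2 were higher (4.65%, against 7.74%). The proliferation marker Mki67 had 2.22 FPKM in Ctrl-AM and 2.31 FPKM in Tumor-AM (0.04 ± 0.13, adjusted p = 0.868). The remaining lower gene was Hmgb2 (−0.28 ± 0.07, adjusted p 0.0647 to 0.136 without any 1 of the 6 samples). The higher genes were Cdk4 (0.25 ± 0.06, adjusted p 0.0634 to 0.136 without any 1 of the 6 samples) and the cyclin-dependent kinase inhibitor Cdkn1a (0.56 ± 0.10, adjusted p 0.054 without Ctrl-AM 1 and 0.0504 without Ctrl-AM 3). Among 35 tested transcription factors of macrophage lineages 8 were higher (22.9%, against 7.74% of all genes tested) and 4 were lower (11.4%, against 4.10%). The higher count was 4 without Ctrl-AM 1, 5 without Ctrl-AM 2, 4 without Ctrl-AM 3 and 5 without Tumor-AM 3. The lower count was 1 without Ctrl-AM 1, 2 without Ctrl-AM 2, 1 without Ctrl-AM 3 and 2 without Tumor-AM 3. After rescaling to TPM 5 were higher and 7 lower. Pparg was lower as above, Cebpa changed by −0.33 ± 0.08 (adjusted p 0.0538 to 0.111 without Ctrl-AM 1, 2 or 3 or Tumor-AM 3), Cebpd changed by −0.59 ± 0.12 (adjusted p 0.0585 to 0.0687 without Ctrl-AM 1, 2 or 3) and Bhlhe41, which helps AMs to renew themselves, by −0.42 ± 0.11 (adjusted p 0.0763 to 0.127 without Ctrl-AM 1 or 3 or Tumor-AM 1, 2 or 3). Id2, Nfil3 and Ets2 were among the steadily higher members of the list, with changes of 0.99 ± 0.16, 0.94 ± 0.13 and 0.83 ± 0.10. Bcl2a1a, an inhibitor of apoptosis, fell from 122 ± 6.44 to 87.2 ± 7.48 FPKM (−0.48 ± 0.08, adjusted p = 0.00836), but 55.2% of its 75-base windows occur in other genes, since near-identical copies lie beside it.

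The remaining genes with the largest falls were of less known function or at low levels. Cpne5, a calcium-dependent membrane-binding copine, fell from 33.6 ± 0.557 to 16.2 ± 4.23 FPKM (−1.03 ± 0.15, adjusted p = 0.00492). Lgals4, a galectin, fell from 12.1 ± 0.918 to 6.1 ± 1.53 FPKM (−0.91 ± 0.16, adjusted p = 0.00917). The uncharacterised transcripts Gm13546, D630039A03Rik and Ggnbp2os changed by −1.76 ± 0.15, −1.43 ± 0.12 and −0.91 ± 0.13. Igflr1 had a change of −1.56 ± 0.18, but 93.8% of its 75-base windows occur in other genes and its value is uncertain. Trp53i11 (−1.06 ± 0.23) lost its call in some refits (adjusted p 0.06 to 0.0864 without Ctrl-AM 2 or 3 or Tumor-AM 3), as did Rras2 (−0.94 ± 0.19, 0.0542 to 0.0679 without Ctrl-AM 1, 2 or 3) and Serf1 (−0.99 ± 0.20, 0.0519 to 0.0689 without Ctrl-AM 1, 2 or 3), and AV051173 (−0.94 ± 0.17, 0.0519 without Ctrl-AM 3). Rpph1, the RNA of ribonuclease P, changed by −1.07 ± 0.27, with an adjusted p of 0.0705 to 0.122 without Ctrl-AM 1, 2 or 3 or Tumor-AM 1 or 2.

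The largest coordinated fall by number was that of the ribosomal proteins, the structural proteins of the cytosolic ribosome. Of 76 tested 54 were lower (71.1%, against 4.10% of all genes) and none was higher, with 71 lower and none higher at an unadjusted p under 0.05 in limma, and the median was −0.33 on the log2 scale. The count was 25 without Ctrl-AM 1, 29 without Ctrl-AM 2 and 22 without Ctrl-AM 3. After rescaling to TPM 72 were lower, with a median of −0.47, beside the −0.12 of all genes under that scaling. Summed over the list the level was 30679, 31057 and 30970 FPKM in Ctrl-AM and 23092, 25651 and 25170 FPKM in Tumor-AM. The sums were alike within each group and did not overlap between the groups. Of the 76 genes 74 had a lower mean in Tumor-AM, beside a median change of 0.01 on the log2 scale over all genes tested. The exceptions in the mean were Rpl26 (23 FPKM in Ctrl-AM and 23.7 FPKM in Tumor-AM) and Rps27, which varied widely between samples of a group (4.56, 336 and 3.08 FPKM in Ctrl-AM and 5.56, 136 and 462 FPKM in Tumor-AM, 1.92 ± 1.90, adjusted p = 0.57).

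The falls were small and similar. Rpl23a had 481, 494 and 524 FPKM in Ctrl-AM and 352, 356 and 349 FPKM in Tumor-AM (−0.50 ± 0.06, adjusted p = 0.00212). Rps24 had 167, 159.5 and 168 FPKM in Ctrl-AM and 104, 118 and 126 FPKM in Tumor-AM (−0.51 ± 0.08, adjusted p = 0.00603). Rps3a1 fell from 436 ± 1.19 to 324 ± 3.24 FPKM (−0.42 ± 0.05, adjusted p = 0.00261). In all 3 no Tumor-AM sample reached the lowest Ctrl-AM sample. In FPKM, 5 ribosomal protein genes were among the 10 largest falls of the genes past the threshold that the naming rule did not leave out. They included Rpl10 (from 1183 ± 6.84 to 869 ± 20.8 FPKM, −0.44 ± 0.06, adjusted p = 0.00308), Rps18 (from 1094 ± 16.5 to 849 ± 26.4 FPKM, −0.37 ± 0.06, adjusted p = 0.00735), Rpl37a (−0.46 ± 0.08, adjusted p 0.0537 without Ctrl-AM 3) and Rpl41 (−0.30 ± 0.08, adjusted p 0.0509 to 0.156 without any 1 of the 6 samples). Ribosomal protein genes have many processed copies in the genome, and a median of 27.6% of their 75-base windows occur in other genes, so that single values are uncertain. In Tumor-macrophage the level of Rpl23a was 424 FPKM and that of Rps18 883 FPKM.

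The lists of ribosomal proteins and of the mitochondrial respiratory chain were not matched for transcript length or level. The respiratory chain is a second large set of small, abundant transcripts. None of its 76 tested subunits passed the threshold in either direction, 8 were lower and none higher at an unadjusted p under 0.05 in limma, and the median was −0.04. Single subunits changed by −0.27 to 0.15, with Ndufa4 (514 FPKM in Ctrl-AM and 428 FPKM in Tumor-AM, −0.27 ± 0.10, adjusted p = 0.129, and −0.36 ± 0.09, adjusted p = 0.0377 without Tumor-AM 2) at the lower end. Without Tumor-AM 2 there were 4 lower subunits, without Tumor-AM 3 there was 1, and after rescaling to TPM there were 17, with a median of −0.18. Heat shock and endoplasmic reticulum stress genes moved little, with 2 higher and 2 lower of 38. The lower members were Hsp90aa1 (−0.27 ± 0.06, adjusted p 0.0608 to 0.118 without Ctrl-AM 1, 2 or 3 or Tumor-AM 1 or 3) and Xbp1 (−0.33 ± 0.06, adjusted p 0.0505 to 0.0739 without Ctrl-AM 1 or 3 or Tumor-AM 3). The higher members were Ppp1r15a, which ends the stress block of translation (from 39.8 ± 4.9 to 74.2 ± 6.32 FPKM, 0.89 ± 0.10, adjusted p = 0.00208), and Bag3 (0.60 ± 0.11, adjusted p 0.0543 without Ctrl-AM 1).

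**Figure D3:**
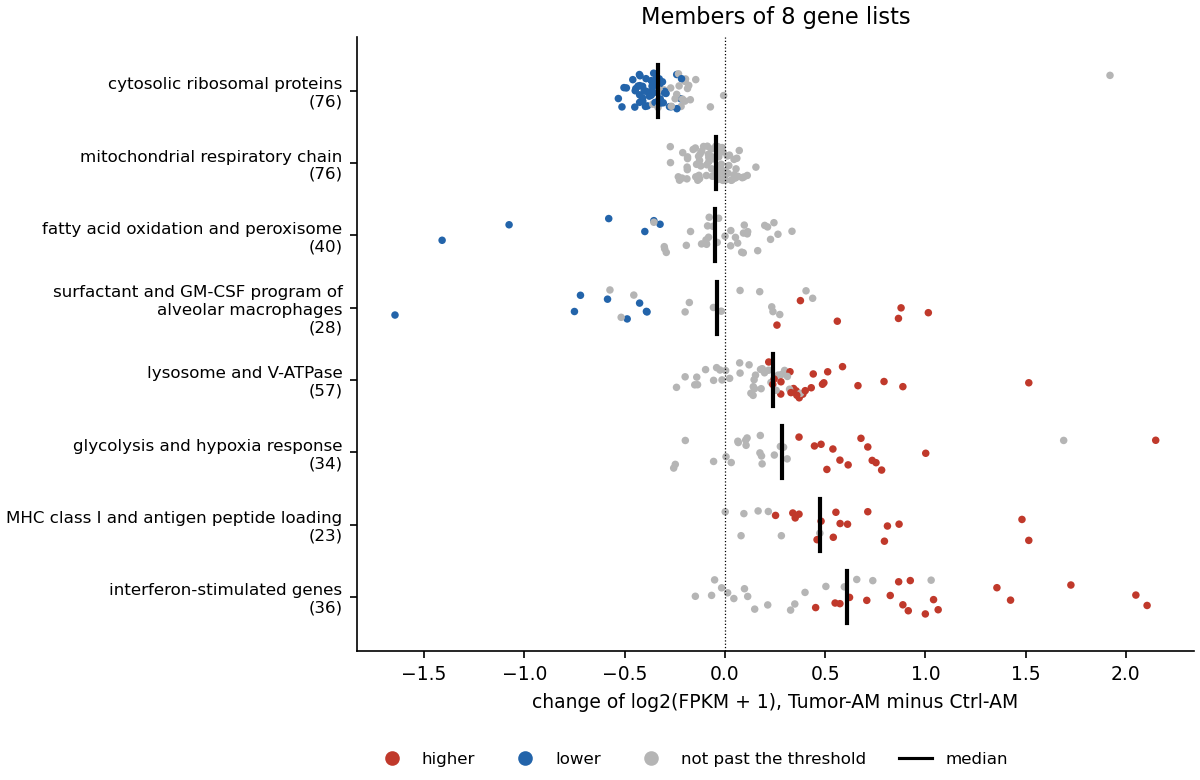
Changes of log2(FPKM + 1) in Tumor-AM against Ctrl-AM (x axis) for the members of 8 gene lists, with the number tested in parentheses. Each point is 1 gene, red if higher, blue if lower and grey if not past the threshold, and black lines are the medians, which run from −0.33 for the ribosomal proteins to 0.61 for the interferon-stimulated genes.

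Genes induced by interferons, the cytokines of antiviral defence and T cell help, formed the counterpart among the raised genes. Type I interferon acts on promoters through the interferon-stimulated response element, whose core is also read by IRF1 and other interferon regulatory factors. Its core was searched as GAAANNGAA on both strands, in RefSeq promoters of GRCm38.p6 that run from 250 bases before to 50 bases after the annotated start (first listed promoter of each gene, found for 7769 of the 10071 genes tested). The bases before the start are shown for 4 raised genes of this group that hold the core, with the core in capitals, each written along the strand of its gene.

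The first is that of Oas1a, an enzyme that senses viral double-stranded RNA, at chr5:120907526-120907775 on the minus strand, and the next 2 are those of the GTPases Gbp3 (chr3:142559794-142560043) and Gbp2 (chr3:142620413-142620662), both on the plus strand. The last is that of B2m, the light chain of MHC class I, at chr2:122147437-122147686 on the plus strand.
Oas1a: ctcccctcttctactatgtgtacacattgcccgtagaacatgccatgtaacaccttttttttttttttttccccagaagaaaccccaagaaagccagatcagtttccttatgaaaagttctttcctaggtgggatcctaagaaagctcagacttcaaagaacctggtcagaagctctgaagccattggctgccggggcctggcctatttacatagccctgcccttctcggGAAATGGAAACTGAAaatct
Gbp3: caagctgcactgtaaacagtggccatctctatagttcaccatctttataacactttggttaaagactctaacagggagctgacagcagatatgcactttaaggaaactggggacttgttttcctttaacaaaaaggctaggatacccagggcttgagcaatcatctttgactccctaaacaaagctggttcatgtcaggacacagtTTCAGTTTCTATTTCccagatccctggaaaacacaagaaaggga
Gbp2: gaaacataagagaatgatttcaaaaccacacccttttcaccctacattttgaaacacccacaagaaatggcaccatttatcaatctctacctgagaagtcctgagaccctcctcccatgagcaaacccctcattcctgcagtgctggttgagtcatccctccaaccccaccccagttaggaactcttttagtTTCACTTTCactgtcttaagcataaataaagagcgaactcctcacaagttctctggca
B2m: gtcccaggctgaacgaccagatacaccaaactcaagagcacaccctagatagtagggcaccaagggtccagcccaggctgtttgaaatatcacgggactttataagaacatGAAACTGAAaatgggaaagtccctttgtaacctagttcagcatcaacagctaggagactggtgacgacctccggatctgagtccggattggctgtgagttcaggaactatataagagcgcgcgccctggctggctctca

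The core began 20 and 14 bases before the start in Oas1a, where both matches overlap, 44 and 38 bases before it in Gbp3, again overlapping, 58 bases before it in Gbp2 and 139 bases before it in B2m. It was present in 7.41% of the promoters of all genes tested, in 9.48% of those of the higher genes and in 7.87% of those of the lower genes. Among the tested interferon-stimulated genes 17 of 28 promoters held it (60.7%), among genes of the interferon-gamma list 9 of 18 (50%) and among genes of MHC class I presentation 5 of 18 (27.8%). Of the interferon-stimulated genes that were higher in Tumor-AM, 7 of 15 promoters held it (46.7%).

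Of 36 interferon-stimulated genes 18 were higher (50%, against 7.74% of all genes), with a median of 0.61, and the count was 8 without Ctrl-AM 1. Ifi27l2a, an interferon-induced mitochondrial protein, had 27.7, 50.4 and 27.1 FPKM in Ctrl-AM and 162, 148 and 135 FPKM in Tumor-AM (2.11 ± 0.21, adjusted p = 0.00131). Oas1a had 13.9, 13.7 and 9.81 FPKM in Ctrl-AM and 25.5, 31.1 and 23.3 FPKM in Tumor-AM (1.04 ± 0.15, adjusted p = 0.00465). Lgals3bp, a secreted glycoprotein that binds galectin 3, had 92.7, 98.7 and 93.9 FPKM in Ctrl-AM and 185, 195 and 162 FPKM in Tumor-AM (0.92 ± 0.08, adjusted p = 0.000795). In these 3 genes the lowest Tumor-AM sample stood clear of the highest Ctrl-AM sample. Oasl2 and Oas1g, of the same family as Oas1a, rose from low levels (from 0.63 ± 0.414 to 5.97 ± 2.71 FPKM and from 0.778 ± 0.466 to 4.81 ± 1.13 FPKM, 2.05 ± 0.29 and 1.73 ± 0.22). Oas1a and Oas1g share 47.6% and 44.6% of their 75-base windows with other genes. Irf7, which amplifies the response, changed by 1.36 ± 0.28 (adjusted p 0.0689 without Ctrl-AM 1), and Rsad2, an antiviral enzyme, by 1.00 ± 0.19 (adjusted p 0.053 without Ctrl-AM 1). Tumor-AM 2 was the highest of the 3 samples in Oasl2, Oas1a, Irf7 and Rsad2. Not past the threshold were, among others, Isg15 (3.63 FPKM in Ctrl-AM and 6.86 FPKM in Tumor-AM, 0.74 ± 0.23, adjusted p = 0.073) and Ifit1 (1.16 FPKM in Ctrl-AM and 1.34 FPKM in Tumor-AM, 0.11 ± 0.15, adjusted p = 0.681). In Tumor-macrophage Ifi27l2a had 280.2 FPKM.

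In the list of interferon-gamma-inducible genes 11 of 23 were higher (47.8%), with a median of 0.45, and 7 without Ctrl-AM 1. Gbp2 had 7.82, 12.6 and 7.91 FPKM in Ctrl-AM and 19.8, 33.8 and 22.6 FPKM in Tumor-AM (1.33 ± 0.22, adjusted p = 0.00837). Gbp3 had 1.87, 1.4 and 1.52 FPKM in Ctrl-AM and 6.25, 7.37 and 5.2 FPKM in Tumor-AM (1.48 ± 0.14, adjusted p = 0.00119). Both are guanylate-binding proteins that attack the vacuoles of intracellular microbes. Irf1, a factor that interferon gamma induces at once, rose from 38.8 ± 4.28 to 87.9 ± 25.7 FPKM (1.13 ± 0.18, adjusted p = 0.00697). Socs3, a feedback inhibitor of cytokine receptors, rose from 4.78 ± 0.476 to 11.6 ± 1.93 FPKM (1.12 ± 0.14, adjusted p = 0.00222). Cd274, the checkpoint ligand PD-L1, had 48.3, 59.1 and 55.2 FPKM in Ctrl-AM and 87.4, 86 and 88.5 FPKM in Tumor-AM (0.68 ± 0.08, adjusted p = 0.00221), with the 3 Tumor-AM samples close together, and 73.5 FPKM in Tumor-macrophage. Cxcl9, a chemokine for T cells, stayed low, with 0.604, 0.741 and 0.609 FPKM in Ctrl-AM and 2.69, 6.95 and 2.62 FPKM in Tumor-AM (1.52 ± 0.28, adjusted p 0.0521 without Ctrl-AM 1).

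Transcripts for presentation on MHC class I, which shows peptides from inside the cell to CD8 T cells, were raised at several steps. Of 23 tested genes 16 were higher (69.6%), with a median of 0.47, and the count was 9 without Ctrl-AM 3. The light chain B2m had 2402, 2543 and 2527 FPKM in Ctrl-AM and 3483, 4356 and 3631 FPKM in Tumor-AM (0.61 ± 0.10, adjusted p = 0.00623). The heavy chain H2-K1 had 605, 672 and 558 FPKM in Ctrl-AM and 1053, 1018 and 1109 FPKM in Tumor-AM (0.80 ± 0.08, adjusted p = 0.00133), and the heavy chain H2-D1 had 2487, 2591 and 2245 FPKM in Ctrl-AM and 3422, 3656 and 3827 FPKM in Tumor-AM (0.57 ± 0.08, adjusted p = 0.00462). B2m and H2-D1 were among the 20 most abundant transcripts of AMs, and each Tumor-AM sample exceeded each Ctrl-AM sample. Tap1, a subunit of the peptide transporter, rose from 9.62 ± 1.55 to 18.4 ± 3.19 FPKM (0.87 ± 0.15, adjusted p = 0.00868), and Tapbp, which loads the peptide, rose from 134 ± 4.65 to 195 ± 2.43 FPKM (0.54 ± 0.06, adjusted p = 0.00154). Non-classical members rose as well, H2-Q7 by 1.48 ± 0.20, H2-T23 by 0.48 ± 0.06 and H2-M2 by 2.30 ± 0.32, the last from 1.59 to 10.9 FPKM. The class I genes share stretches of sequence, so single values within the family are uncertain. Genes of presentation on MHC class II did not move in this way. Of 20 tested genes 3 were higher, the median was 0.10 (−0.03 after rescaling to TPM), and the higher members were the proteases Ctsl and Ctss and the costimulator Cd86, with 1 without Ctrl-AM 3. Cd86 changed by 0.84 ± 0.19 (adjusted p 0.0505 to 0.0833 without Ctrl-AM 2 or 3 or Tumor-AM 1 or 3). The class II chains H2-Aa and H2-Ab1 did not pass the threshold (0.29 ± 0.29, adjusted p = 0.579 and 0.39 ± 0.28, adjusted p = 0.417).

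Some inflammatory cytokines rose, and others did not pass the threshold. Spp1, osteopontin, a secreted phosphoprotein that binds integrins and CD44, had 775, 772 and 712 FPKM in Ctrl-AM and 3182, 3755 and 4295 FPKM in Tumor-AM, a 4.97-fold rise (2.30 ± 0.11, adjusted p = 4.89e-05). Il1b, interleukin 1 beta, had 56.1, 90.5 and 65.6 FPKM in Ctrl-AM and 427, 299 and 446 FPKM in Tumor-AM, a 5.52-fold rise (2.45 ± 0.20, adjusted p = 0.00055). Osm, oncostatin M, a cytokine of the interleukin 6 family, had 125, 162 and 165 FPKM in Ctrl-AM and 526, 372 and 607 FPKM in Tumor-AM (1.71 ± 0.18, adjusted p = 0.00146). For these 3 genes every Tumor-AM sample was well over every Ctrl-AM sample, and the means of Spp1 and Osm were also above those in Tumor-macrophage (1459 and 126 FPKM). Il6 rose from 4.37 ± 0.225 to 17.1 ± 5.17 FPKM (1.72 ± 0.18, adjusted p = 0.00146) and Lif, another cytokine of that family, from 2.92 ± 0.479 to 6.73 ± 1.26 FPKM (0.97 ± 0.15, adjusted p = 0.00674). Their levels in Tumor-macrophage were 3.59 and 0.481 FPKM. In the list of 29 tested cytokine genes 7 were higher and 1 was lower, with a median of 0.17, and the lower count was 3 without Tumor-AM 2. Tnf did not pass the threshold (36.5 FPKM in Ctrl-AM and 28.1 FPKM in Tumor-AM, −0.40 ± 0.17, adjusted p = 0.176) unless Tumor-AM 2 was left out (−0.60 ± 0.12, adjusted p = 0.0192), nor did Il1a (110.0 FPKM in Ctrl-AM and 123 FPKM in Tumor-AM, 0.16 ± 0.06, adjusted p = 0.14).

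Among 20 tested chemokines 6 were higher and 2 lower, with 3 higher without Ctrl-AM 1. Cxcl1, a neutrophil attractant, had 19.4, 24.2 and 21.7 FPKM in Ctrl-AM and 99, 83.1 and 57.6 FPKM in Tumor-AM (1.80 ± 0.18, adjusted p = 0.00124). Cxcl2, which acts on the same receptor, had 102, 100.5 and 122 FPKM in Ctrl-AM and 193, 206 and 149 FPKM in Tumor-AM (0.74 ± 0.13, adjusted p = 0.00882). Cxcl16, the ligand of CXCR6, had 7.38, 7.39 and 5.86 FPKM in Ctrl-AM and 27.2, 19 and 30.6 FPKM in Tumor-AM (1.74 ± 0.17, adjusted p = 0.00119). In these 3 genes the groups were separate. The monocyte attractant Ccl2 had 10.9 FPKM in Ctrl-AM and 11.4 FPKM in Tumor-AM (0.03 ± 0.20, adjusted p = 0.946). Ccl8 was far higher in Tumor-macrophage (3935 FPKM) than in AMs, where it changed by 1.97 ± 0.51 (0.806, 1.18 and 2.83 FPKM in Ctrl-AM and 3.14, 10.3 and 18.3 FPKM in Tumor-AM), and its adjusted p was 0.0627 to 0.143 without Ctrl-AM 1, 2 or 3 or Tumor-AM 2 or 3.

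NF-kappaB, the factor downstream of Toll-like and cytokine receptors, induces its own inhibitors, and several of these rose. Of 29 tested genes 13 were higher (44.8%) and 1, Traf2, was lower (−0.34 ± 0.09, adjusted p 0.064 to 0.143 without any 1 of the 6 samples), with a median of 0.29, and the higher count was 8 without Ctrl-AM 2, 7 without Ctrl-AM 3 and 7 without Tumor-AM 3 and 8 after rescaling to TPM. Tnfaip3, the deubiquitinase A20, rose from 31.4 ± 3.63 to 73 ± 12.4 FPKM (1.19 ± 0.13, adjusted p = 0.00165). Bcl3, an atypical inhibitor, rose from 8.22 ± 0.595 to 21.1 ± 6.61 FPKM (1.22 ± 0.20, adjusted p = 0.00719), and Nfkbiz and Nfkbie changed by 0.76 ± 0.09 and 0.68 ± 0.09. Zc3h12a, a ribonuclease that degrades cytokine transcripts, rose from 10.7 ± 0.339 to 17.8 ± 0.406 FPKM (0.68 ± 0.08, adjusted p = 0.00205). The kinase Ikbke rose from a low level (from 1.42 ± 0.44 to 5.26 ± 1.59 FPKM, 1.36 ± 0.21, adjusted p = 0.00591). The subunits Rela and Nfkb1 did not pass the threshold (−0.03 ± 0.07, adjusted p = 0.834 and −0.12 ± 0.12, adjusted p = 0.576), while Rel changed by 0.58 ± 0.14, with an adjusted p of 0.0541 to 0.129 without Ctrl-AM 1, 2 or 3 or Tumor-AM 1 or 3. The NF-kappaB letters GGGANTTTC were found in 1.0% of the promoters of all genes tested, 2.0% of those of the higher and 1.31% of those of the lower genes.

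Immediate-early genes, switched on within minutes of a stimulus, were raised in part. Of 32 tested 11 were higher, with a median of 0.24, and the count was 6 without Ctrl-AM 1 and 5 without Ctrl-AM 3. Ier3, a survival gene of the early response, had 48.3, 45.5 and 43.6 FPKM in Ctrl-AM and 180.1, 182 and 206 FPKM in Tumor-AM, a 4.14-fold rise (2.02 ± 0.07, adjusted p = 1.05e-05), with little spread within either group. Junb, a subunit of the factor AP-1, had 237, 311 and 285 FPKM in Ctrl-AM and 663, 445 and 715 FPKM in Tumor-AM (1.11 ± 0.17, adjusted p = 0.00652). Nr4a2, an orphan nuclear receptor, had 4.5, 6.08 and 5.11 FPKM in Ctrl-AM and 35.2, 14.7 and 22.7 FPKM in Tumor-AM (1.94 ± 0.26, adjusted p = 0.0035). Tumor-AM 2 was the lowest Tumor-AM sample in Junb and Nr4a2. Fosb rose from 22.3 ± 2.96 to 42.7 ± 3.85 FPKM (0.91 ± 0.11, adjusted p = 0.00221). Jun, Egr1 and Dusp1 did not pass the threshold (0.12 ± 0.07, adjusted p = 0.32, 0.19 ± 0.15, adjusted p = 0.447 and −0.22 ± 0.13, adjusted p = 0.319), although Dusp1 was lower without Tumor-AM 1 (−0.37 ± 0.08, adjusted p = 0.0331). The AP-1 letters TGANTCA were in 4.78% of the promoters of all genes tested, in 8.32% of those of the higher genes and in 3.28% of those of the lower genes. Within the list of this paragraph they were in 1 of 28 promoters (3.57%) and in 0 of the 10 of its higher genes.

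**Figure D4:**
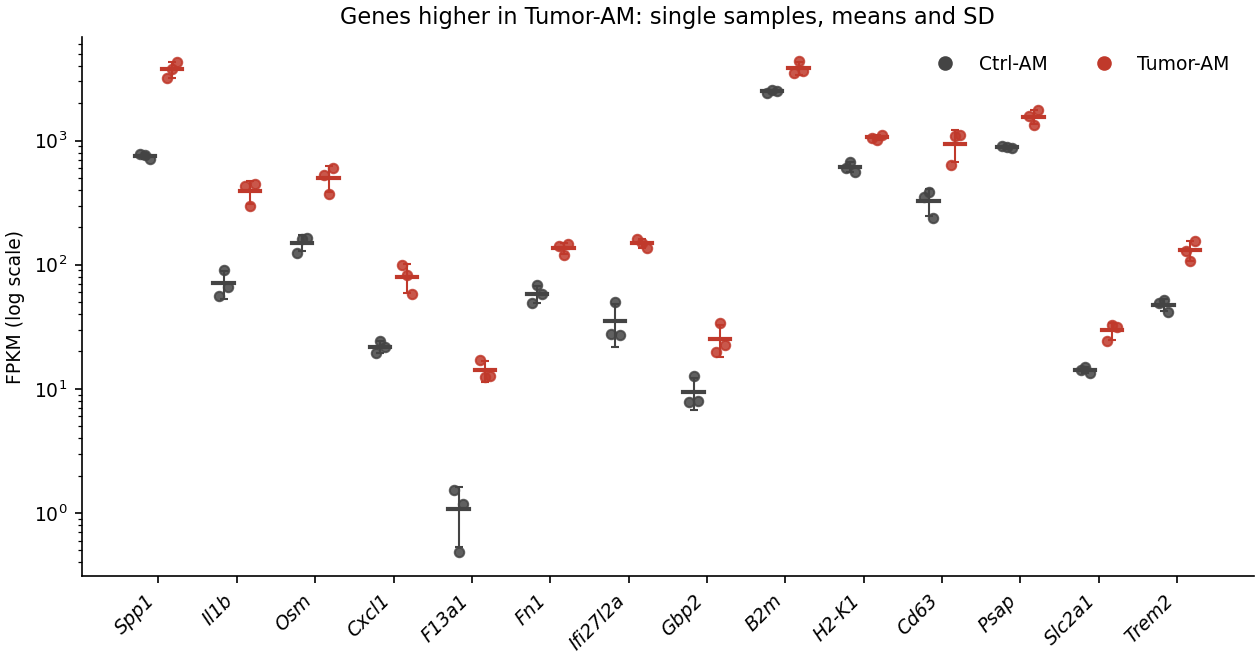
FPKM (y axis, log scale) of 14 genes higher in Tumor-AM, with Ctrl-AM in grey and Tumor-AM in red. Points are single samples, short lines the means and bars the SD of 3 samples. In each of the 14 genes the 3 Tumor-AM points lie above the 3 Ctrl-AM points, as holds for all higher genes past the threshold.

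Genes that mark monocytes and recruited macrophages were raised in large part. Of 30 tested 20 were higher (66.7%), with a median of 0.62, and the count was 11 without Ctrl-AM 1, 11 without Ctrl-AM 2 and 13 without Ctrl-AM 3. F13a1, the A chain of coagulation factor XIII and a marker of monocytes, had 1.54, 0.486 and 1.19 FPKM in Ctrl-AM and 17.2, 12.5 and 12.6 FPKM in Tumor-AM, a 13.2-fold rise (2.89 ± 0.21, adjusted p = 0.000433). Apoe, apolipoprotein E, had 107, 184 and 86.4 FPKM in Ctrl-AM and 429, 324 and 601 FPKM in Tumor-AM (1.86 ± 0.29, adjusted p = 0.0062). C1qb, a chain of complement C1q, had 9.06, 13.4 and 10.9 FPKM in Ctrl-AM and 37.5, 35.6 and 69.9 FPKM in Tumor-AM (1.95 ± 0.25, adjusted p = 0.00261). All 3 Tumor-AM samples were higher in each of these genes, and Tumor-AM 3 was the highest in Apoe and C1qb. The other C1q chains moved alike, C1qc from 5.52 ± 0.663 to 20.7 ± 8.47 FPKM (1.67 ± 0.24, adjusted p = 0.00471) and C1qa from 2.61 ± 1.22 to 9.79 ± 3.48 FPKM (1.60 ± 0.30, adjusted p = 0.0124, and 0.056 with no filter on low values).

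Beside these rises stand the levels in Tumor-macrophage, which were 6882 FPKM for C1qb, 4532 FPKM for C1qc, 2171 FPKM for C1qa, 27853 FPKM for Apoe and 3935 FPKM for Ccl8. The rise in Tumor-AM was 0.531%, 0.335%, 0.331%, 1.17% and 0.228% of these levels. For other genes of the list the same share was far larger. It was 18.7% for F13a1 and 32.7% for Cd14, the coreceptor for lipopolysaccharide (from 338 ± 32.9 to 765 ± 124 FPKM, 1.17 ± 0.12, adjusted p = 0.00153). Fn1, fibronectin, was higher in Tumor-AM than in Tumor-macrophage, with 49.5, 68.3 and 57.9 FPKM in Ctrl-AM and 142, 119.6 and 147 FPKM in Tumor-AM (1.21 ± 0.12, adjusted p = 0.00142) against 35.3 FPKM. Of the 779 higher genes 9 had a rise of at most 1.5% of the Tumor-macrophage level. The part of admixed cells in any of these rises was not tested.

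Of the 16 tested complement genes, which include the 3 C1q chains, 10 were higher (62.5%), with a median of 0.69. Without the C1q chains 7 of 13 were higher, with a median of 0.58. Cfb, factor B of the alternative pathway, had 100.2, 85.1 and 85.8 FPKM in Ctrl-AM and 173, 142 and 146 FPKM in Tumor-AM (0.76 ± 0.10, adjusted p = 0.00282). C1ra, the protease of the C1 complex, rose from 10.1 ± 1.36 to 19.5 ± 3.57 FPKM (0.88 ± 0.14, adjusted p = 0.00716). Of their 75-base windows 81.2% for Cfb and 42.4% for C1ra occur in other genes, so that both values are uncertain. C3ar1, the receptor for C3a, rose from 1.08 ± 0.275 to 2.68 ± 0.344 FPKM (0.83 ± 0.15, adjusted p = 0.0105). Itgb2, the beta chain of complement receptor 3, had 642, 713 and 659 FPKM in Ctrl-AM and 987, 989 and 1030.5 FPKM in Tumor-AM (0.58 ± 0.07, adjusted p = 0.00193) and exceeded the 502 FPKM of Tumor-macrophage. C3 changed by 0.39 ± 0.08, with an adjusted p of 0.0584 without Ctrl-AM 2 and 0.0667 without Ctrl-AM 3. C5ar1, the receptor for C5a, did not pass the threshold (385 FPKM in Ctrl-AM and 334 FPKM in Tumor-AM, −0.20 ± 0.07, adjusted p = 0.105).

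Matrix proteins rose as well, with 9 of 19 tested genes higher (47.4%) and a median of 0.73. Ecm1, a secreted glycoprotein of the extracellular matrix, had 16.2, 15 and 9.75 FPKM in Ctrl-AM and 58.8, 101 and 124 FPKM in Tumor-AM (2.67 ± 0.27, adjusted p = 0.00133). Tgfbi, a matrix protein induced by transforming growth factor beta, had 287, 312 and 320.2 FPKM in Ctrl-AM and 407, 479 and 468 FPKM in Tumor-AM (0.56 ± 0.08, adjusted p = 0.00465). Thbs1, thrombospondin 1, rose from 3 ± 0.547 to 6.5 ± 0.925 FPKM (0.91 ± 0.14, adjusted p = 0.0065), and Emilin2 rose from 23.3 ± 2.13 to 39.5 ± 3.35 FPKM (0.73 ± 0.10, adjusted p = 0.00287). Lum, described above among the fibroblast markers, had the largest change of the list. The fibroblast collagen Col3a1 had 0.608, 1.28 and 1.51 FPKM in Ctrl-AM and 4.84, 3.47 and 21 FPKM in Tumor-AM (1.99 ± 0.52, adjusted p 0.0537 to 0.143 without Ctrl-AM 1, 2 or 3 or Tumor-AM 1), with the highest value in Tumor-AM 3, the sample with the highest fibroblast markers, while Col1a1 stayed under 1 FPKM on average in both groups. Igfbp4, a binding protein of insulin-like growth factors, had 2.41, 2.34 and 2.84 FPKM in Ctrl-AM and 11.8, 8.84 and 39.9 FPKM in Tumor-AM (2.29 ± 0.45, adjusted p 0.05 to 0.0595 without Ctrl-AM 1, 2 or 3), again highest in Tumor-AM 3.

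Proteases made up most of a further group of raised genes. In the list of metalloproteinases, cathepsins and inhibitors 16 of 29 were higher (55.2%) and 2 lower, with a median of 0.36, and the higher count was 10 without Ctrl-AM 1 and 9 without Ctrl-AM 3. Mmp19 had 50, 58.1 and 53.4 FPKM in Ctrl-AM and 116, 176 and 157 FPKM in Tumor-AM (1.44 ± 0.14, adjusted p = 0.00119), more than in Tumor-macrophage (32.4 FPKM). Adam8, a sheddase of the cell surface, had 2.8, 2.53 and 2.53 FPKM in Ctrl-AM and 12, 12.2 and 13.2 FPKM in Tumor-AM (1.89 ± 0.10, adjusted p = 7.65e-05), with all samples of a group close together. Its level in Tumor-macrophage was 205.8 FPKM. Ctsd, cathepsin D and the fifth most abundant transcript of AMs, had 8878, 9174 and 8420.5 FPKM in Ctrl-AM and 12440.5, 13149.6 and 14776 FPKM in Tumor-AM (0.61 ± 0.10, adjusted p = 0.00681), and its adjusted p was 0.0504 without Ctrl-AM 3 and 0.115 with no filter on low values. Ctss changed by 0.55 ± 0.10 (adjusted p 0.0649 without Ctrl-AM 1 and 0.0615 without Ctrl-AM 3). Ctsl and Ctsb rose from 155 ± 7.33 to 238 ± 15.8 FPKM (0.62 ± 0.07, adjusted p = 0.00205) and from 497 ± 10.8 to 736 ± 42.3 FPKM (0.56 ± 0.07, adjusted p = 0.00204). The lower members were inhibitors, Serpinb1a (−0.39 ± 0.08, adjusted p 0.0724 to 0.0815 without Ctrl-AM 1, 2 or 3) and Timp3 (−0.97 ± 0.22, adjusted p 0.0542 to 0.1 without Ctrl-AM 1, 2 or 3 or Tumor-AM 1). Mmp12, the macrophage elastase, had 19.7 FPKM in Ctrl-AM and 13.7 FPKM in Tumor-AM (−0.33 ± 0.39, adjusted p = 0.639).

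The lysosome, where macrophages degrade what they take up, shared in this. Of 57 tested genes 23 were higher (40.4%), with a median of 0.24, and the count was 10 without Ctrl-AM 1, 14 without Ctrl-AM 2, 11 without Ctrl-AM 3 and 13 without Tumor-AM 3, while rescaling to TPM left 11 higher and 4 lower with a median of 0.10. Cd63, a tetraspanin of late endosomes, had 352, 388 and 236 FPKM in Ctrl-AM and 630.4, 1081 and 1111 FPKM in Tumor-AM (1.52 ± 0.24, adjusted p = 0.00716). Psap, prosaposin, the precursor of activators of lipid hydrolases, had 909.7, 896 and 874 FPKM in Ctrl-AM and 1575, 1348 and 1751 FPKM in Tumor-AM (0.79 ± 0.10, adjusted p = 0.00222). Acp5, an acid phosphatase, had 285, 291 and 255 FPKM in Ctrl-AM and 551, 434 and 563 FPKM in Tumor-AM (0.89 ± 0.11, adjusted p = 0.00221). Tumor-AM 1 was the lowest Tumor-AM sample in Cd63 and Tumor-AM 2 in Psap and Acp5, and the groups stayed apart in all 3. The membrane proteins Lamp1 and Lamp2 rose by 0.37 ± 0.06 and 0.34 ± 0.06, the second with an adjusted p of 0.0515 after rescaling to TPM. Lipa, which hydrolyses cholesterol esters, changed by 0.40 ± 0.07 (adjusted p 0.0535 without Ctrl-AM 3). Tfeb, a regulator of lysosomal genes, did not pass the threshold (−0.14 ± 0.09, adjusted p = 0.37). The letters GTCACGTGA of its CLEAR element were in 3 of 44 promoters of this list (6.82%) and in 1 of the 19 of its higher genes (5.26%), against 1.92% of the promoters of all genes tested and 1.33% of those of all higher genes.

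Regulators of clotting were raised on both sides of the balance, 6 of 14 tested, with a median of 0.21. F7, factor VII, which starts clotting with tissue factor, had 302, 303 and 304 FPKM in Ctrl-AM and 419.8, 414 and 379 FPKM in Tumor-AM (0.41 ± 0.06, adjusted p = 0.00545), against 22.1 FPKM in Tumor-macrophage, and its adjusted p was 0.0689 under the shared spread of all 9 samples. Procr, the receptor of the anticoagulant protein C, rose from 4.3 ± 0.542 to 13.5 ± 1.39 FPKM (1.46 ± 0.12, adjusted p = 0.000598). Thbd, thrombomodulin, had 18.1, 20.1 and 17.5 FPKM in Ctrl-AM and 37, 39.1 and 40.6 FPKM in Tumor-AM (1.03 ± 0.08, adjusted p = 0.00055). Values within each group were close in all 3 genes. Plaur, the urokinase receptor, changed by 0.37 ± 0.07 (adjusted p 0.0548 to 0.0846 without Ctrl-AM 1, 2 or 3 or Tumor-AM 3).

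Transcripts for glucose uptake and glycolysis were raised in part. In the joint list of glycolysis and the hypoxia response 14 of 34 genes were higher (41.2%), with a median of 0.28. Slc2a1, the glucose transporter GLUT1, had 14.2, 14.9 and 13.3 FPKM in Ctrl-AM and 24.3, 32.9 and 31.4 FPKM in Tumor-AM (1.00 ± 0.12, adjusted p = 0.00212). Hk1 and Hk2, hexokinases that trap glucose in the cell, rose from 3.43 ± 0.613 to 6.58 ± 0.535 FPKM (0.78 ± 0.13, adjusted p = 0.00841) and from 3.92 ± 0.679 to 7.02 ± 0.158 FPKM (0.71 ± 0.12, adjusted p = 0.00917). Ldha, which makes lactate, had 725, 699 and 734 FPKM in Ctrl-AM and 916, 921 and 952 FPKM in Tumor-AM (0.37 ± 0.06, adjusted p = 0.00652), with an adjusted p of 0.0805 under the shared spread of all 9 samples. The differences were small in relation to the level for Ldha and larger for Slc2a1, and the groups were separate in each. Aldoc and Pgam1 changed by 0.61 ± 0.08 and 0.54 ± 0.08. Hif1a, the oxygen-regulated factor, rose from 20.7 ± 0.87 to 35.9 ± 5.59 FPKM (0.75 ± 0.11, adjusted p = 0.00465). Vegfa, the vascular growth factor, rose from 0.673 ± 0.507 to 6.71 ± 3.41 FPKM (2.15 ± 0.33, adjusted p = 0.00562). Gapdh did not pass the threshold (0.11 ± 0.07, adjusted p = 0.382), and neither did the hypoxia-induced Bnip3 (−0.26 ± 0.11, adjusted p = 0.186) or Pdk1 (−0.06 ± 0.13, adjusted p = 0.821). In the citrate cycle list 3 of 28 genes were higher and 1, Mpc2, was lower, with 1 higher without Ctrl-AM 1, 2 or 3 or without Tumor-AM 2. Irg1, which makes the immune metabolite itaconate, rose from 1.71 ± 0.327 to 4.45 ± 0.28 FPKM (1.01 ± 0.13, adjusted p = 0.00287), with 102 FPKM in Tumor-macrophage.

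Arg1, arginase 1, had 1.8, 1.46 and 1.24 FPKM in Ctrl-AM and 4.09, 15.3 and 6.15 FPKM in Tumor-AM (1.76 ± 0.37, adjusted p 0.0586 to 0.0726 without Ctrl-AM 1, 2 or 3), against 162 FPKM in Tumor-macrophage. Of the 25 tested genes of the interleukin 4 response and arginine metabolism 7 were higher and 3 lower, with higher counts of 3 without Ctrl-AM 1, 4 without Ctrl-AM 2 and 3 without Ctrl-AM 3 and lower counts of 0 without Ctrl-AM 1, 0 without Ctrl-AM 3, 1 without Tumor-AM 1 and 1 without Tumor-AM 3. Rescaling to TPM left 4 higher and 4 lower. Of 37 antioxidant genes 9 were higher and 1, Gsto1, was lower (−0.28 ± 0.06, adjusted p 0.059 to 0.0728 without Ctrl-AM 1, 2 or 3), with 4 higher without Ctrl-AM 1, 5 without Ctrl-AM 2, 2 without Ctrl-AM 3 and 5 without Tumor-AM 3, with 3 lower without Tumor-AM 2, and with 3 higher and 3 lower after rescaling to TPM. Their steady members were Slc7a11, the cystine transporter (from 4.02 ± 0.875 to 8.46 ± 0.209 FPKM, 0.93 ± 0.14, adjusted p = 0.0056), and Txnrd1, thioredoxin reductase (from 74.7 ± 1.5 to 106 ± 3.88 FPKM, 0.49 ± 0.06, adjusted p = 0.00239). Slc11a1, a metal transporter of phagosomes, rose from 3.09 ± 0.509 to 15.2 ± 5.75 FPKM (1.92 ± 0.26, adjusted p = 0.00348), and the ferritin chains Fth1 and Ftl1, with mean levels of 18106 and 27505 FPKM in Ctrl-AM, did not pass the threshold (0.41 ± 0.13, adjusted p = 0.0736 and 0.59 ± 0.17, adjusted p = 0.0573), except without Tumor-AM 1 (0.52 ± 0.08, adjusted p = 0.0102 and 0.76 ± 0.11, adjusted p = 0.00645). Of the windows of Ftl1 84.8% occur in other genes.

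Surface receptors were raised in several families. In the list of Fc and immunoglobulin-like receptors 13 of 31 were higher (41.9%) and 1 lower, with a median of 0.22. Trem2, a receptor for lipids and apoptotic cells, had 49.6, 51.7 and 41.3 FPKM in Ctrl-AM and 129, 108 and 155 FPKM in Tumor-AM (1.43 ± 0.14, adjusted p = 0.00119). Trem1, which amplifies inflammatory signals, had 122, 142 and 147 FPKM in Ctrl-AM and 238, 186 and 211 FPKM in Tumor-AM (0.62 ± 0.10, adjusted p = 0.00854). Slamf8 went from 0.185 to 4.08 FPKM (2.09 ± 0.15, adjusted p = 0.000433). In all 3 genes no Ctrl-AM sample reached a Tumor-AM sample. Tyrobp, the adaptor of the TREM receptors, and the Fc receptor chain Fcer1g, both among the 20 most abundant transcripts, did not pass the threshold (−0.04 ± 0.07, adjusted p = 0.744 and 0.07 ± 0.07, adjusted p = 0.563). The lower member was Fcgrt, the neonatal Fc receptor that protects immunoglobulin G from breakdown (−0.38 ± 0.07, adjusted p 0.0546 without Ctrl-AM 1 and 0.0589 without Ctrl-AM 3).

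Of 23 scavenger and apoptotic-cell receptors and bridges 9 were higher and 1, the lectin Mgl2, was lower (−0.71 ± 0.18, adjusted p 0.0732 to 0.132 without Ctrl-AM 1, 2 or 3 or Tumor-AM 1 or 2), with 5 higher without Ctrl-AM 1 and 4 without Ctrl-AM 3. Msr1, scavenger receptor A, had 15.2, 18.2 and 11.6 FPKM in Ctrl-AM and 52.1, 69.3 and 60.3 FPKM in Tumor-AM (1.96 ± 0.16, adjusted p = 0.000598). Mfge8, a bridge between phagocytes and apoptotic cells, had 11.9, 17.6 and 11.8 FPKM in Ctrl-AM and 45.3, 38.7 and 73.8 FPKM in Tumor-AM (1.83 ± 0.24, adjusted p = 0.00288). Both genes had no Ctrl-AM sample at the level of a Tumor-AM sample. Marco and Cd36, the scavenger receptors typical of resting AMs, had lower means but did not pass the threshold, with 275, 192 and 194 FPKM in Ctrl-AM and 60.2, 329 and 95.3 FPKM in Tumor-AM for Marco (−0.81 ± 0.52, adjusted p = 0.361) and 212, 177 and 151 FPKM in Ctrl-AM and 79.6, 175 and 95.8 FPKM in Tumor-AM for Cd36 (−0.69 ± 0.26, adjusted p = 0.127). Tumor-AM 2 lay apart in both, and without it Marco was lower (−1.51 ± 0.21, adjusted p = 0.0049), as was Cd36 (−1.02 ± 0.14, adjusted p = 0.00457). Among pattern-recognition receptors 10 of 35 were higher (28.6%), 6 without Ctrl-AM 1. The C-type lectins Clec4d, Clec4e and Clec4n, which recognise microbial and self lipids and sugars, rose by 1.06 ± 0.17, 0.88 ± 0.10 and 0.54 ± 0.07, whereas Tlr2 and Tlr4 did not pass the threshold (0.14 ± 0.10, adjusted p = 0.416 and −0.09 ± 0.11, adjusted p = 0.661).

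In the eicosanoid pathway 7 of 25 genes were higher, 4 without Ctrl-AM 1 or without Ctrl-AM 3. Ptgs1, cyclooxygenase 1, had 4.07, 5.1 and 4.46 FPKM in Ctrl-AM and 22.2, 28 and 27.3 FPKM in Tumor-AM (2.27 ± 0.12, adjusted p = 7.65e-05). Pla2g7, which breaks down platelet-activating factor, had 5.34, 7.15 and 4.68 FPKM in Ctrl-AM and 15.4, 33.5 and 23.3 FPKM in Tumor-AM (1.85 ± 0.25, adjusted p = 0.00355), against 649.5 FPKM in Tumor-macrophage. Ptgir, the prostacyclin receptor, had 4.9, 5.45 and 3.88 FPKM in Ctrl-AM and 13.7, 17.8 and 15.2 FPKM in Tumor-AM (1.53 ± 0.14, adjusted p = 0.001). In each of the 3 the Tumor-AM samples lay above the Ctrl-AM samples. Ptgs2, cyclooxygenase 2, stayed near 1 FPKM (0.89 ± 0.20, adjusted p 0.0604 to 0.0854 without Ctrl-AM 1, 2 or 3 or Tumor-AM 1 or 3), and Alox5 and Alox5ap of the leukotriene branch did not pass the threshold (−0.20 ± 0.09, adjusted p = 0.189 and 0.00 ± 0.06, adjusted p = 0.99), although Alox5 was lower without Tumor-AM 1 (−0.30 ± 0.07, adjusted p = 0.0434). Adora2b, a receptor for adenosine, rose from 1.1 ± 0.467 to 6.38 ± 0.398 FPKM (1.83 ± 0.17, adjusted p = 0.00103), and P2rx4, an ATP-gated channel, rose from 44.9 ± 2.57 to 68.8 ± 3.89 FPKM (0.60 ± 0.07, adjusted p = 0.00237). Immune checkpoint ligands other than Cd274 included Cd200, which quiets myeloid cells and rose from 18.2 ± 4.41 to 35.7 ± 3.35 FPKM (0.96 ± 0.16, adjusted p = 0.00797), and its receptor Cd200r1, which rose from 49.4 ± 3.15 to 74.9 ± 4.61 FPKM (0.59 ± 0.08, adjusted p = 0.00288).

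Further genes with the largest rises fell outside these lists or were known mainly from other tissues. Syngr1, a protein of synaptic vesicles, had 4.44, 6.08 and 2.34 FPKM in Ctrl-AM and 29.5, 32.5 and 45.9 FPKM in Tumor-AM (2.85 ± 0.27, adjusted p = 0.00119). Pmp22, a myelin membrane protein also found in other cells, had 3.21, 3.46 and 4.39 FPKM in Ctrl-AM and 28.5, 19.8 and 27.7 FPKM in Tumor-AM (2.48 ± 0.16, adjusted p = 0.000254). Pdpn, podoplanin, the ligand of CLEC-2, had 4.49, 7.35 and 5.43 FPKM in Ctrl-AM and 29.5, 33.1 and 39.9 FPKM in Tumor-AM (2.39 ± 0.17, adjusted p = 0.000368). Every Tumor-AM sample exceeded every Ctrl-AM sample in these genes, as the rule that named them required. Fam20c, a kinase of secreted proteins whose substrates include osteopontin, rose from 2.15 ± 1.04 to 15.1 ± 2.88 FPKM (2.39 ± 0.25, adjusted p = 0.00146). Map6, a microtubule-stabilising protein, rose from 2.11 ± 0.503 to 11 ± 2.92 FPKM (1.93 ± 0.19, adjusted p = 0.00119) and was almost absent from Tumor-macrophage (0.457 FPKM). AA467197 rose from 5.84 ± 2.15 to 26.6 ± 3.14 FPKM (2.05 ± 0.20, adjusted p = 0.00119), and S100a6 rose from 33.2 ± 4.43 to 134 ± 45.9 FPKM (1.93 ± 0.22, adjusted p = 0.00204). Vps37b changed by 2.53 ± 0.20, but 42.4% of its 75-base windows occur in other genes. Crip1, a small LIM protein, had 338, 482 and 308 FPKM in Ctrl-AM and 701, 1578 and 1825 FPKM in Tumor-AM (1.77 ± 0.33, adjusted p 0.0561 without Ctrl-AM 1 and 0.0544 without Ctrl-AM 3).

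Genes in lists of more general cell functions were counted too, beside 7.74% higher and 4.10% lower among all genes tested. Of 53 genes of the actin cytoskeleton and motility 8 were higher and 1 lower, with 3 higher without Ctrl-AM 1 and 2 without Ctrl-AM 3, and the median was 0.06, while rescaling to TPM left 3 higher and 3 lower. Among 38 channels and solute carriers of macrophages 12 were higher and 3 lower, with higher counts of 5 without Ctrl-AM 1, 7 without Ctrl-AM 2, 6 without Ctrl-AM 3 and 6 without Tumor-AM 3, and with 7 higher and 5 lower after rescaling to TPM. The lower members were Slc1a2, a glutamate transporter (−0.84 ± 0.17, adjusted p 0.059 without Ctrl-AM 2 and 0.0519 without Ctrl-AM 3), Slc9a4, a sodium-proton exchanger (−0.32 ± 0.07, adjusted p 0.0546 to 0.0911 without Ctrl-AM 1, 2 or 3 or Tumor-AM 1 or 3), and Slco2b1, an organic anion carrier (−0.34 ± 0.09, adjusted p 0.0652 to 0.151 without Ctrl-AM 1, 2 or 3 or Tumor-AM 2 or 3). Their levels in Tumor-macrophage were 0.435, 1.07 and 4.74 FPKM. Of 22 genes of the TGF-beta family 2 were higher, 1 of them without any 1 of the 6 samples, and Smad1, which relays signals of bone morphogenetic proteins, was lower (−0.39 ± 0.08, adjusted p 0.0543 to 0.0804 without Ctrl-AM 2 or 3 or Tumor-AM 3). Fgf1, a growth factor, was the lower gene of 17 growth factors and angiogenic signals (−0.81 ± 0.22, adjusted p 0.0541 to 0.155 without Ctrl-AM 1, 2 or 3 or Tumor-AM 2 or 3), and 4 were higher, among them Nrp2, a coreceptor for vascular growth factor and semaphorins (from 8.71 ± 1.02 to 16.2 ± 1.42 FPKM, 0.82 ± 0.11, adjusted p = 0.00321), and Grn, progranulin (from 530.1 ± 25.3 to 719.5 ± 27.4 FPKM, 0.44 ± 0.07, adjusted p = 0.00487).

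Several of the most abundant transcripts differed among the Tumor-AM samples. Lyz2, lysozyme, led all genes with 52184, 56316 and 51474 FPKM in Ctrl-AM and 81270.5, 54356 and 80917 FPKM in Tumor-AM (0.41 ± 0.17, adjusted p = 0.17). Chil3, a chitinase-like protein, had 28521, 25648 and 23048 FPKM in Ctrl-AM and 20425, 36468 and 21806 FPKM in Tumor-AM (−0.02 ± 0.21, adjusted p = 0.973), and Ftl1, the ferritin light chain, had 29189.8, 28538 and 24788 FPKM in Ctrl-AM and 32473, 50324 and 43051 FPKM in Tumor-AM (0.59 ± 0.17, adjusted p = 0.0573). Tumor-AM 2 was the lowest of its group in Lyz2 and the highest in Chil3 and Ftl1, and none of the 3 genes passed the threshold. Without Tumor-AM 2 Lyz2 was higher (0.61 ± 0.10, adjusted p = 0.00756), as was the related Lyz1 (0.61 ± 0.07, adjusted p = 0.00213), and without Tumor-AM 1 Ftl1 was higher (0.76 ± 0.11, adjusted p = 0.00645). Of the 20 most abundant transcripts Ctsd, Ctss, B2m and H2-D1 were higher and Ear2 was lower. Their summed level was 186325 to 198906 FPKM in Ctrl-AM and 233124 to 255265 FPKM in Tumor-AM. Cytoskeletal members such as Tmsb4x (−0.10 ± 0.09, adjusted p = 0.517), Actb (0.14 ± 0.08, adjusted p = 0.299) and Actg1 (0.15 ± 0.07, adjusted p = 0.212) did not pass the threshold, nor did Ccl6 (0.30 ± 0.10, adjusted p = 0.107, and 0.40 ± 0.07, adjusted p = 0.0144 without Tumor-AM 1), Lyz1 (0.41 ± 0.16, adjusted p = 0.135), Cd9 (0.01 ± 0.09, adjusted p = 0.952), Anxa2 (0.07 ± 0.07, adjusted p = 0.571), S100a11 (0.18 ± 0.12, adjusted p = 0.372) or Lgals3 (0.12 ± 0.10, adjusted p = 0.487). Over all genes tested the root mean squared deviation of a sample from the others of its group was 0.288 to 0.301 in Ctrl-AM and 0.313 to 0.347 in Tumor-AM on the log2 scale.

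**Figure D5:**
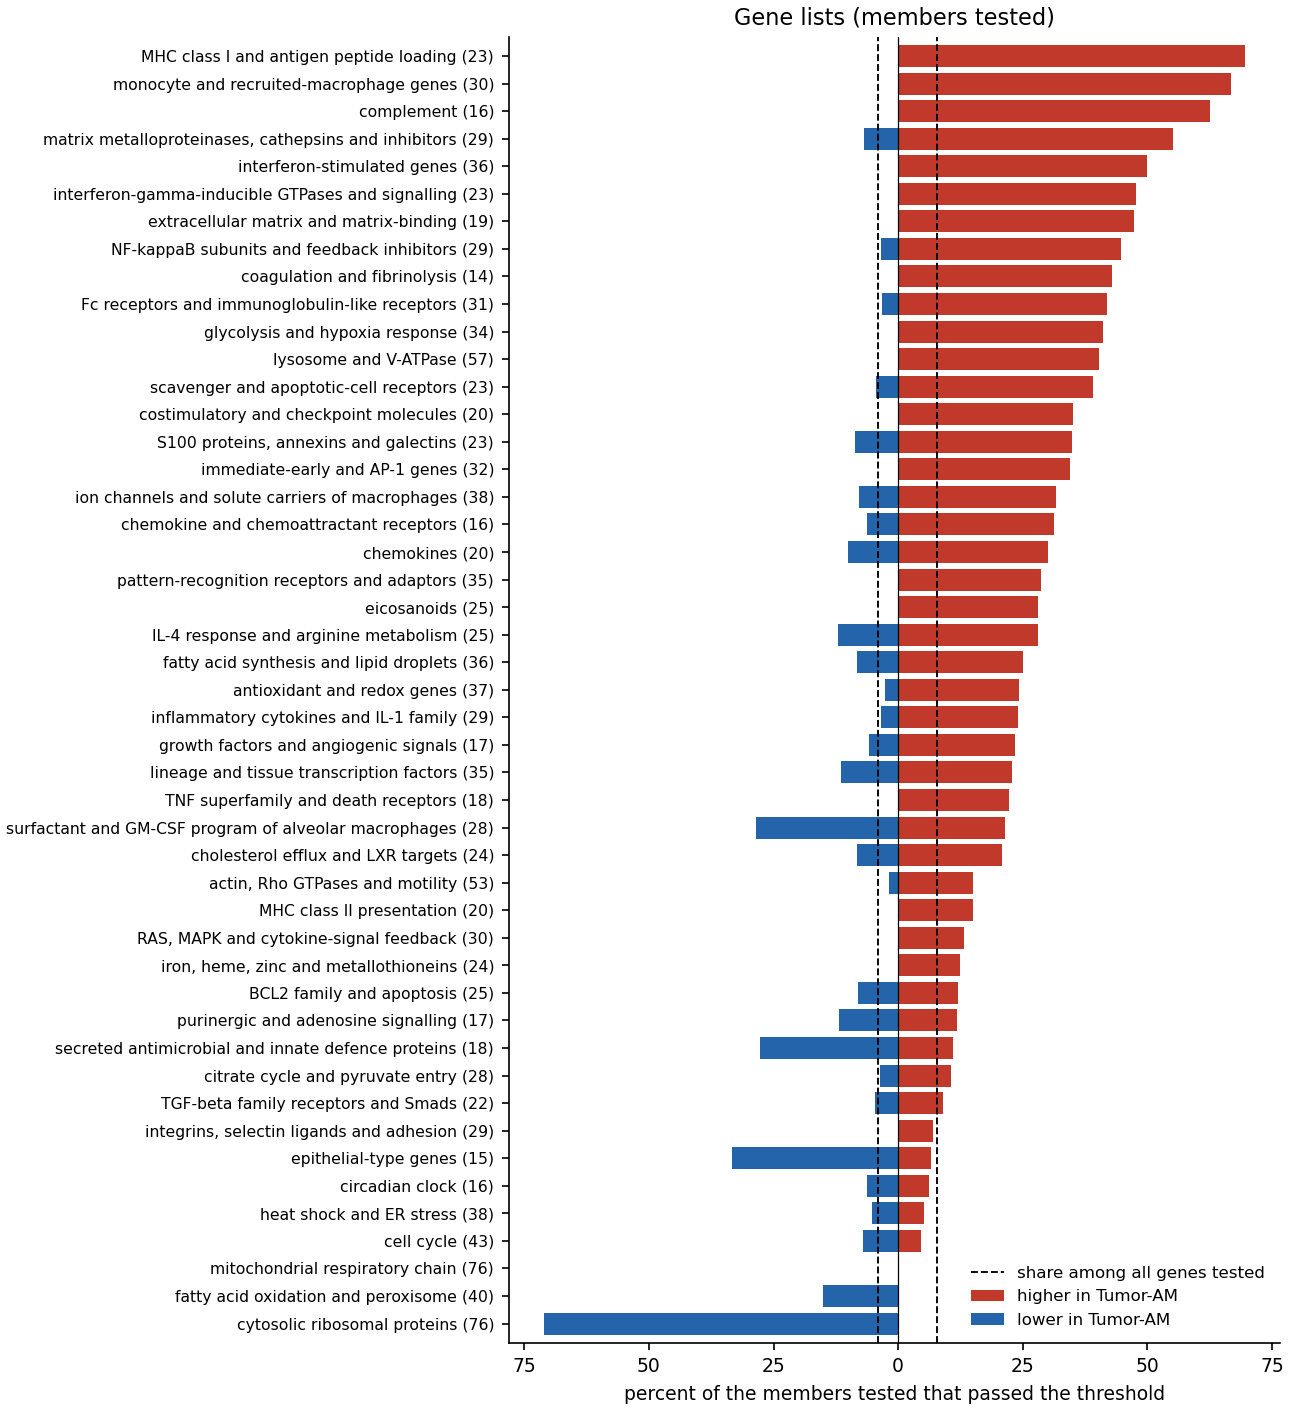
Share of the tested members of each of 47 gene lists that passed the threshold (x axis, percent), with the higher share as red bars to the right and the lower share as blue bars to the left. Dashed lines mark the shares among all genes tested, 7.74% and 4.10%, and MHC class I presentation (69.6% higher) and the ribosomal proteins (71.1% lower) have the longest bars.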

How the data were processed

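RNA-seq was analysed from 3 Ctrl-AM and 3 Tumor-AM samples, with 3 Tumor-macrophage samples as a description only. The authors made libraries with a low-input whole-transcript kit, sequenced single 75-base reads, aligned them to mm10 with TopHat2 (version 2.1.1) and deposited FPKM per gene, for which the submitters' processing notes name Cuffdiff (version 2.2.1). Gene annotation, strand and the handling of reads with several matches are not given in the sources used here, so that values of near-identical or overlapping genes are uncertain. Shared 75-base windows were counted between GENCODE transcripts, whereas the promoters came from RefSeq. FPKM is no count, so no count model was used, and depth was estimated from the smallest steps between low values. Depth limits mainly the genes near 1 FPKM.

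A gene had to reach 1 FPKM in at least 3 of the 6 samples to enter the test, which was limma (version 3.58.1, R 4.3.3) on log2(FPKM + 1), where the prior variance followed the expression level, with Benjamini-Hochberg adjustment over all 10071 genes. Values after ± are standard errors for log2 changes and SDs (n = 3) for FPKM means, and the adjusted p-values beside them come from limma. The 3 Tumor-macrophage samples were left out of the fit because many AM genes are near 0 in them, and they entered it as an alternative. Python 3.11.15 with pandas 2.3.3, numpy 2.4.6 and matplotlib 3.10.9 made tables and figures, and the fit was tested on simulated data. The members and the 47 lists of functions and 12 lists of cell markers were chosen with earlier results of these data known. The members of one list can belong to another.

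Genes were named by a rule. Among genes past the threshold it took, in each direction, the 25 largest log2 changes and the 10 largest FPKM differences. The 25 had a mean of at least 10 FPKM in the higher group and groups that did not overlap. The rule also took the 20 most abundant genes and members of the lists. Short RNAs, Inhba, the sort markers, several genes the study put foremost and sterol synthesis were left out of this rule. Lum, one of these study genes, is still given above as a fibroblast marker and a member of the matrix list. A few other genes that the rule or the lists hold are not reported here. In all, 16 alternatives were run, among them 6 that each left out 1 sample.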

Additional observations from a re-analysis of the deposited data

How the results depend on the processing

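With each change of 1 setting, the counts of higher and lower genes were 491 and 219 with no filter on low values, 471 and 1040 after rescaling to TPM, and 174 and 30 with a 2-fold minimum. They ranged from 377 to 722 and from 144 to 405 when 1 sample was left out. A pseudocount of 0.1, a mean of at least 5 FPKM, quantile normalization, median-ratio scaling, a constant prior variance and a fit of all 9 samples kept both counts within 1.5 times those reported. Of the 1192 genes past the threshold, 884 also passed after rescaling to TPM and 647 with no filter. Of 235 genes past the threshold that were named or taken by the naming rule, 159 passed in every alternative that tested them. Fcer1g turned from 0.07 to −0.19 ± 0.05 (adjusted p = 0.0329) after quantile normalization. The cause was not tested.

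The replicate numbers in the labels do not pair the samples. The deviations of same-numbered samples from their group means correlated at −0.033, 0.007 and −0.093 across genes, and a fit with the number as a block gave 495 higher and 214 lower genes, 687 of them shared with the fit without it. Genes near 1 FPKM rest on few reads, and smaller changes in them were not detectable at this depth.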

Other observations

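Among genes outside the lists, chosen after their values were seen and past the threshold in all 6 refits without 1 sample, several of the lowered ones encode receptors and regulators. Ffar4, a receptor for long-chain fatty acids, had 111, 105 and 108 FPKM in Ctrl-AM and 62.8, 62.0 and 59.6 FPKM in Tumor-AM (−0.81 ± 0.06, adjusted p = 0.000433). Adrb1, a receptor for noradrenaline and adrenaline, fell from 8.55 ± 0.611 to 5.21 ± 0.416 FPKM (−0.62 ± 0.10, adjusted p = 0.00853). Itgad, an integrin alpha chain, had 6.37, 9.23 and 6.38 FPKM in Ctrl-AM and 2.67, 0.722 and 1.57 FPKM in Tumor-AM (−1.70 ± 0.27, adjusted p = 0.00620). In Ffar4 and Itgad the groups did not overlap. Phgdh, the first enzyme of serine synthesis, fell from 187 ± 18.9 to 126 ± 10.7 FPKM (−0.56 ± 0.09, adjusted p = 0.00756, and 0.215 under the spread shared by all 9 samples), and Lmo4, a transcriptional cofactor, fell from 119 ± 4.41 to 78.8 ± 10.4 FPKM (−0.60 ± 0.10, adjusted p = 0.00756). Scimp, an adaptor of Toll-like receptor signalling, fell from 114 ± 10.0 to 73.4 ± 1.30 FPKM (−0.62 ± 0.07, adjusted p = 0.00222).

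Several raised genes outside the lists act in cyclic AMP signalling or its feedback. Crem, a factor that responds to cyclic AMP, had 23.2, 37.6 and 31.2 FPKM in Ctrl-AM and 132, 58.3 and 105 FPKM in Tumor-AM (1.60 ± 0.28, adjusted p = 0.00992). Pde4b, which breaks down cyclic AMP, had 34.1, 44.2 and 36.3 FPKM in Ctrl-AM and 117, 66.1 and 102 FPKM in Tumor-AM (1.26 ± 0.20, adjusted p = 0.00607). Sik1, a kinase that restrains cyclic AMP-driven transcription, rose from 4.43 ± 0.556 to 12.3 ± 2.69 FPKM (1.28 ± 0.16, adjusted p = 0.00261). All 3 were higher in each Tumor-AM sample than in any Ctrl-AM sample. Smox, which oxidises the polyamine spermine, rose from 11 ± 1.84 to 40.0 ± 10.6 FPKM (1.75 ± 0.20, adjusted p = 0.00203), and Nnmt, which methylates nicotinamide, rose from 0.223 ± 0.241 to 6.79 ± 4.37 FPKM (2.55 ± 0.34, adjusted p = 0.00320). Mlkl and Ripk3, the executioner and the kinase of necroptosis, rose from 3.82 ± 0.742 to 10.4 ± 0.746 FPKM (1.25 ± 0.13, adjusted p = 0.00153) and from 9.70 ± 1.42 to 21.6 ± 4.21 FPKM (1.07 ± 0.15, adjusted p = 0.00436), and Ninj1, which ruptures the membrane of dying cells, rose from 19.5 ± 0.668 to 47.7 ± 9.19 FPKM (1.23 ± 0.13, adjusted p = 0.00153). Gadd45b, a stress-response gene, rose from 36.1 ± 2.85 to 87.0 ± 18.8 FPKM (1.23 ± 0.15, adjusted p = 0.00248), and Cav1, the coat protein of caveolae, rose from 30.1 ± 1.92 to 93.8 ± 31.4 FPKM (1.55 ± 0.21, adjusted p = 0.00362). These genes were not tested as a group.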
